A study of Mus musculus with 12 samples.

Results

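Transcripts of the Notch pathway and of related genes were compared between mouse embryonic kidney at E14 (embryonic day 14, 2 arrays) and kidney at E12 and E13 taken as one early group (3 arrays at each stage, 6 in all). These 8 arrays were chosen by their stage labels from the 12 arrays of a series that also covers E16 and E18, with 2 arrays each. The labels give no strain, genotype or treatment for any stage, and they describe arrays of the same stage as technical replicates. The p-values below thus measure the spread between arrays, not between embryos, and the spread of the early group also holds any difference between E12 and E13. How many embryos gave the RNA is not stated in the labels.

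Notch receptors are cut after they bind a ligand on a neighbouring cell, and the freed intracellular part joins the DNA-binding protein Rbpj to switch on targets such as the Hes and Hey repressors. In the developing kidney the pathway is known for its part in patterning the nephron, above all its proximal segments. The stages compared span early branching of the ureteric bud and the formation of the first nephrons.

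Of the 118 genes on the membrane, 103 had a signal above background (the mean of the negative-control spots plus 2 SD) on every array of at least 1 of E12, E13 and E14, and these were tested. The other 15, which include Jag2, Shh and Ptch1, were not. Median gene signal was 3.53 and 7.67 times the mean negative control on E14 replicates 1 and 2, against 2.81 to 7.02 times on the early arrays. Of 21 marker genes of kidney cell types, the array holds only Wnt11, a ligand of the ureteric bud tip. Wnt11 was above background on both E14 arrays and all 6 early arrays. So were most genes, with 94 to 112 of the 118 above background on each of these arrays. The signal of Wnt11 thus does not check the tissue label.

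No gene passed the test between E14 and the early group (limma, 0 of 103 genes, 0%, at an adjusted p under 0.05). At an unadjusted p under 0.05 there were 5 genes, 4.85% of those tested, and all 5 were lower at E14: Krt14, Fzd9, Fzd2, Gli2 and Gli1. For 7 genes, 6.8% of those tested, both E14 arrays lay outside the range of the 6 early arrays. Of these, 5 (4.85%) were lower at E14, namely Krt14, Fzd9, Gli2, Hey1 and Hes6, and 2 (1.94%) were higher, Lrp5 and Figf. Krt14 was the only 1 of the 7 whose arrays stayed apart in all 5 scalings (quantile, array medians, housekeeping genes, none, and the deposited ratios). Those of Lrp5 and Fzd9 also did so with array medians, and those of the other 4 genes with quantile normalization alone. The exact permutation test over the 28 ways to draw 2 of 8 arrays gave each of these 7 genes p = 0.0714 (2-sided), the smallest it can give, and an adjusted p of 1 over the 103 genes. Other scalings set further genes apart. Array medians did so for Gli1 and Il17b, housekeeping genes for Dll1 and Fzd6, and no normalization for Fzd6. The deposited ratios did so for Dll1, Fzd6, Cbl and Tead1, and Tead1 has a ratio on only 1 E14 array. Values below are normalized log2 signals unless a sentence says otherwise, and differences are E14 minus the early group.

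Krt14, a keratin of the basal layer of stratified epithelia, had the largest difference in size among the tested genes. Its normalized log2 signal was 11.32 and 12.25 on the E14 arrays, against a lowest value of 12.95, a median of 13.61 and a highest of 14.59 on the early arrays. Both E14 arrays were below all 6 early arrays. In the deposited signal units the E14 arrays read 3833 and 6053, against 9087 at the lowest, 13235.5 at the median and 20214 at the highest of the early arrays. In the deposited ratios to the housekeeping gene Ppia, the E14 values were 0.0773 and 0.138, against 0.205 to 0.554 on the early arrays. On these scales, too, the groups did not overlap.

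The mean of Krt14 was 11.78 ± 0.66 at E14 (SD, n = 2) and 13.66 ± 0.60 in the early group (SD, n = 6), a difference of -1.88 (SE 0.41, 95% interval -2.80 to -0.96), or a level 3.67-fold lower at E14. The limma adjusted p was 0.115. Over 29 other settings the difference ran from -2.30 to -1.43 and kept its sign, and in 4 of them the adjusted p was under the threshold. These were scaling to array medians (adjusted p = 0.0102), a prior variance that follows the mean signal (0.0145), separate means for E12 and E13 (0.0419) and E12 alone as the reference (0.0233). Against E13 alone the difference was -1.47 (adjusted p = 0.402). The early group was itself spread out for this gene, with 14.06 ± 0.52 at E12 and 13.26 ± 0.38 at E13 (SD, n = 3 each). The later stages averaged 12.40 at E16 and 13.24 at E18, so that E14 was the lowest of the 5 stage means. The arrays of E14 and E16 overlapped, with 11.32 and 12.25 at E14 and 12.20 and 12.61 at E16.

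**Figure D1:**
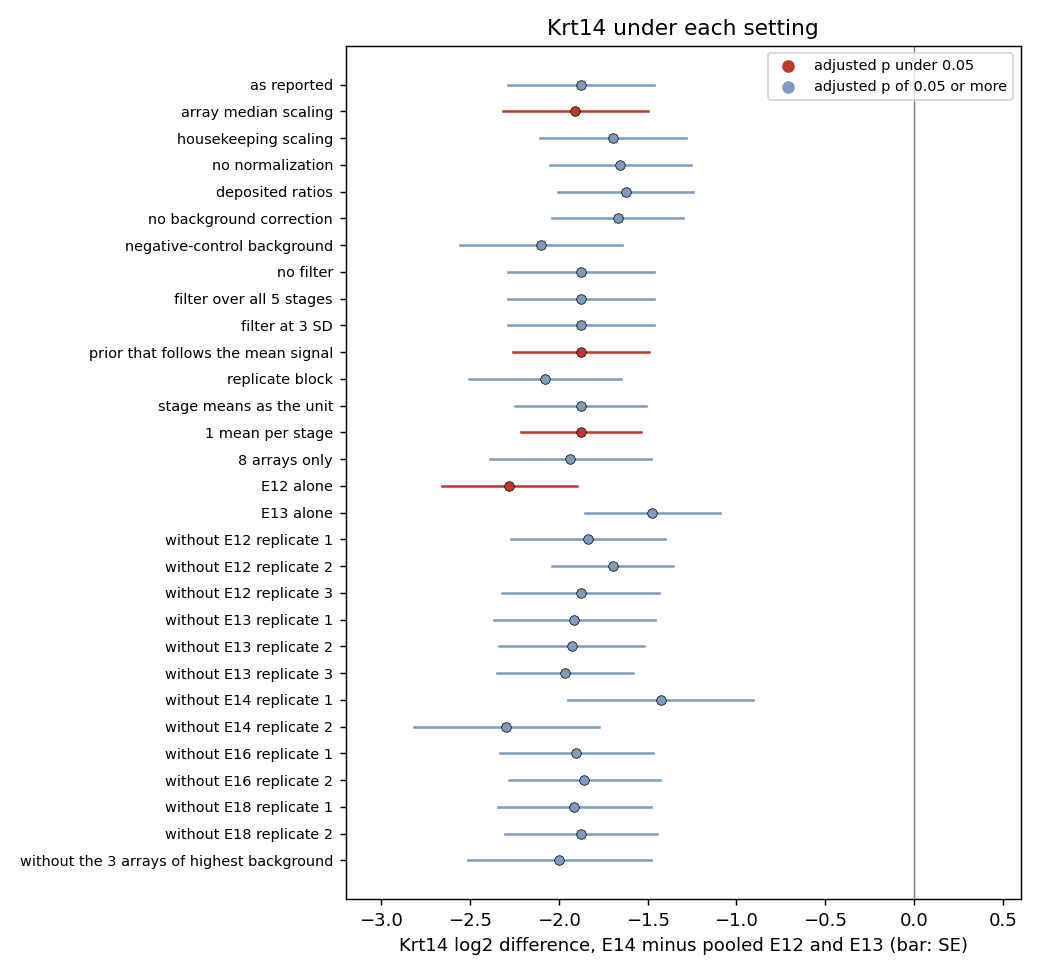
The Krt14 difference in normalized log2 signal, E14 minus the E12 and E13 reference, under each setting. Points are the estimates and bars 1 SE. All points lie between -2.30 and -1.43, and the 4 red ones have an adjusted p under 0.05.

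The other tested genes of the epidermal list had small differences beside that of Krt14. Krt1 and Krt10, keratins of differentiating epidermis, differed by -0.07 (SE 0.13) and 0.11 (SE 0.17). Krt5, the usual partner of Krt14, differed by 0.25 (SE 0.48), and Lor, a protein of the cornified envelope, by 0.11 (SE 0.33). Ivl, another envelope protein, was above background on neither E14 array and on 3 early arrays, and was not tested. The list's median over 5 tested genes was 0.11, beside 0.03 over all 103. Summed as linear normalized signal, the 5 epidermal genes other than Krt14 reached 30671 to 33527 units on the E14 arrays and 26480 to 34932 on the early arrays. Those ranges overlapped, unlike the ranges of Krt14 itself. In bulk RNA, fewer cells of a type and less RNA per cell cannot be told apart.

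Some of the array's genes carry the hexamer TGGGAA, the core that Rbpj recognises, near their start. It stands on either strand in 25.6% of 32851 RefSeq promoter windows (assembly GRCm38.p6, 250 bases before to 50 bases after the gene start) and in 25% of the 88 array genes that have a window. The 3 windows printed here belong to Krt14, which had the largest difference, and to Hey2 and Hes5. Only 3 of the Hes and Hey genes have a window, and Hey2 and Hes5 are the 2 whose windows hold the hexamer. Those without a window could not be searched. Capitals mark TGGGAA or its reverse complement TTCCCA, and each sequence reads 5′ to 3′ on the strand of the gene.
Krt14, chr11:100205981-100206280, minus strand: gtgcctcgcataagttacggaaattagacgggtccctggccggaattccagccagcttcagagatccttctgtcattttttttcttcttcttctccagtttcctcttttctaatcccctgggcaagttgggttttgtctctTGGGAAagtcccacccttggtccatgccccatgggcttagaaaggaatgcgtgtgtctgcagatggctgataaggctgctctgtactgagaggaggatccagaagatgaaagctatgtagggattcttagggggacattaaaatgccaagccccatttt
Hey2, chr10:30842734-30843033, minus strand: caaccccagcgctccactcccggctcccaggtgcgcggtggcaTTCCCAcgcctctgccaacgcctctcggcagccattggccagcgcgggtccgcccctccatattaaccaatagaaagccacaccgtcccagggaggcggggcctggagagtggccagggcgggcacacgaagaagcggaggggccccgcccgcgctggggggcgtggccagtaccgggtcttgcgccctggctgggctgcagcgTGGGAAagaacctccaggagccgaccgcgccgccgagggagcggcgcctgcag
Hes5, chr4:154960673-154960972, plus strand: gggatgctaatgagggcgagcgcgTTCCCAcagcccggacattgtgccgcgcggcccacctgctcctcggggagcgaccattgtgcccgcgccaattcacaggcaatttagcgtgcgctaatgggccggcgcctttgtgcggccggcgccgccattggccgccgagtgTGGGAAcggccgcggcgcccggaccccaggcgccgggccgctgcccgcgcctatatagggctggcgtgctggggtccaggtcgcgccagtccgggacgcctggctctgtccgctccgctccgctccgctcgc
Krt14 holds 1 match, and Hey2 and Hes5 hold 1 on each strand. Their differences were -1.88, -0.50 and 0.24, so that windows with a match belong to genes on both sides of 0. Over the tested genes the median difference was 0.06 for the 18 with a match and 0.04 for the 58 without. A match is a description of the letters and not a mapped site.

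The 4 Notch receptors were all tested, and none passed. Notch1 had 14.30 and 14.54 at E14, against a lowest of 13.51, a median of 14.12 and a highest of 14.68 in the early group. Both E14 arrays were inside the early range. The difference was 0.32 (SE 0.27, 95% interval -0.27 to 0.91, adjusted p = 0.927). Notch2 differed by 0.39 (95% interval -0.35 to 1.13), Notch3 by 0.09 (-0.59 to 0.77) and Notch4 by 0.02 (-0.81 to 0.84). The median of the receptors was 0.20, and 4 of 4 were above 0, or 3 of 4 with array medians. That scaling put the median of all tested genes at -0.18 rather than 0.03, and it is the only scaling that moved it by more than 0.1.

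Among the ligands, 4 were tested and none passed. Jag1, the ligand of early nephron structures, had 13.72 and 14.08 at E14. Its early values fell into separate stages, 13.37 to 13.68 at E12 and 14.15 to 14.54 at E13. With quantile normalization E14 thus lay above all 3 E12 arrays and below all 3 E13 arrays. In the deposited ratios to Ppia it did not, with Jag1 at 0.324 and 0.557 at E14, against 0.218 to 0.343 at E12 and 0.486 to 0.596 at E13. The log2 difference from the pooled group was 0.01 (SE 0.30, 95% interval -0.65 to 0.67). Dll1, a ligand with roles in nephron segmentation, differed by 0.33 (SE 0.52), Dll3 by 0.04 (95% interval -0.76 to 0.84) and the endothelial ligand Dll4 by -0.03 (-0.98 to 0.93). With quantile normalization both E14 arrays of Dll1 lay inside the early range. In the deposited ratios to Ppia they lay above it, with 0.0804 and 0.0989 at E14 against 0.0433 to 0.0763 in the early group. With housekeeping genes they lay outside it too. Jag2 was above background on 1 of 2 E14 arrays and 3 of 6 early arrays.

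The enzymes that cut the receptor showed 0 of 7 members past the test, with a median of 0.07. Psen2, a catalytic presenilin of gamma-secretase, had 12.95 and 12.35 at E14, against 11.50 to 12.61 with a median of 12.11 in the early group. E14 replicate 1 was above every early array and replicate 2 was not. Its difference was 0.56 (95% interval -0.26 to 1.37). The gamma-secretase subunits Psenen, Ncstn and Aph1a differed by 0.16, -0.04 and -0.12, and the sheddases Adam10 and Adam17 by 0.24 and 0.01. With quantile normalization the brightest of these were the best bounded, with 95% intervals of -0.29 to 0.21 for Ncstn and -0.27 to 0.28 for Adam17. The SE for Adam17 was 0.12 with that scaling and 0.40 with array medians. For Adam10, a dimmer gene, the interval was -0.87 to 1.36.

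Modifiers and trafficking genes had 0 of 11 members past the test and a median of 0.18. The fringes, sugar transferases that change which ligands a receptor answers, did not share a direction. Mfng had 10.86 and 10.91 at E14, against a lowest of 9.38, a median of 10.06 and a highest of 10.91 in the early group. E14 was at the upper end of the early range, where Mfng was above background on 3 of 6 arrays. Its difference was 0.75 (SE 0.36, 95% interval -0.06 to 1.56, adjusted p = 0.829). Rfng differed by 0.61 (95% interval -0.53 to 1.76) and Lfng by -0.49 (-1.56 to 0.59), and Lfng was above background on 1 of 2 E14 arrays. Pofut1, which adds the fucose that fringes extend, differed by 0.42 (95% interval -0.30 to 1.15). Numb, an inhibitor of Notch shared out at cell division, differed by 0.19 and its relative Numbl by -0.05. The E3 ligase genes Neurl (now Neurl1a), Dtx1, Dtx3 and Dtx2 differed by 0.20, 0.18, -0.05 and -0.13, and Sel1l, of endoplasmic reticulum quality control, by -0.05.

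Of the 6 Hes and Hey genes, 5 had a difference below 0, beside 47 of all 103 tested genes, and none passed the test. The count was also 5 of 6 in the other scalings, 1 of which, array medians, put 74 of the 103 genes below 0. Hey1 had 14.15 on both E14 arrays, against a lowest of 14.19, a median of 14.34 and a highest of 14.46 in the early group. Hes6 had 14.70 and 14.76 at E14, against 14.80, 14.90 and 14.96. In both genes the E14 arrays lay just under the early range. Quantile normalization gives spots of the same rank the same value, so the equal values of Hey1 are equal ranks. The difference was -0.18 for Hey1 (SE 0.10, 95% interval -0.41 to 0.06) and -0.15 for Hes6 (SE 0.09, 95% interval -0.36 to 0.05), each with an adjusted p of 0.862. Hey2 differed by -0.50 (95% interval -1.26 to 0.26), Heyl by -0.18 (-0.88 to 0.53) and Hes1 by -0.05 (-0.28 to 0.18). Hes5 was the 1 gene above 0, at 0.24 (-0.65 to 1.13). The list's median was -0.16, beside 0.03 over all genes tested. In the 4 other scalings, the E14 and early arrays of Hey1 and Hes6 overlapped. Within replicate number 1, E14 differed from the early arrays by -0.27 for Hey1 and -0.18 for Hes6, and within number 2 by -0.07 and -0.10.

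**Figure D2:**
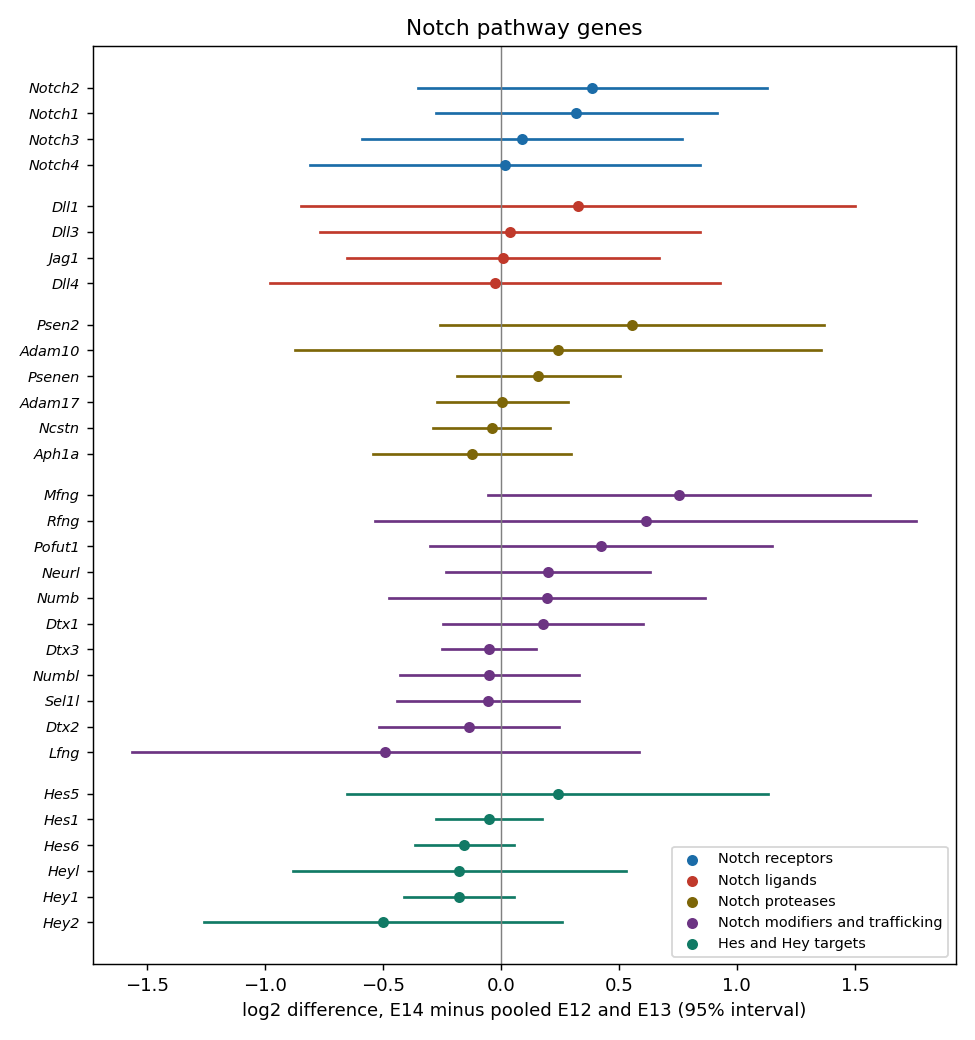
Difference in normalized log2 signal, E14 minus pooled E12 and E13, for tested Notch pathway genes grouped by role. Points are the estimates and bars the 95% intervals. Every interval spans 0, and the widest belong to dim genes such as Rfng and Dll1.

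In the nucleus, the co-activators had 0 of 5 tested members past the test, with Rbpj at 0.17 (95% interval -0.29 to 0.63) and Maml1 at 0.03 (-0.19 to 0.25). Snw1, a co-regulator of Rbpj and a splicing factor, had 13.23 on E14 replicate 1 and 9.30 on replicate 2, against 10.96 to 12.90 on the early arrays. The E14 arrays of Snw1 thus lay on opposite sides of the early range, and its mean difference of -0.67 (SE 0.86) describes neither of them. Snw1 was above background on 1 of 2 E14 arrays. On replicate 2 its deposited signal was 748, below that array's mean negative control of 946. The co-repressors also had 0 of 5 past the test. Aes (now Tle5) and Nrarp differed by 0.19 (SE 0.11) and 0.32 (SE 0.25). Tle1, a Groucho family co-repressor, read 11.69 and 10.51 on the E14 arrays, against 10.18 to 11.21 on the early arrays. Only the first E14 array of Tle1 was above the early range, and the difference was 1.00 within replicate number 1 and -0.57 within number 2, so the mean difference of 0.32 (SE 0.35) describes neither array. Nrarp, a target and feedback inhibitor of Notch, lay on the opposite side of 0 from most Hes and Hey genes.

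Among 7 tested Hedgehog genes, 0 passed over all genes, and 2 had an unadjusted p under 0.05. Gli transcription factors carry the Hedgehog signal to the nucleus. Gli2 had 13.92 and 14.24 at E14, against a lowest of 14.30, a median of 14.44 and a highest of 14.63 in the early group. With quantile normalization E14 was thus lower with no overlap. In the deposited ratios to Ppia the arrays of Gli2 overlapped, with 0.335 and 0.594 at E14 against 0.482 to 0.766 in the early group. The log2 difference was -0.38 (SE 0.15, 95% interval -0.70 to -0.05, adjusted p = 0.701). Gli1, itself a target of the pathway, had 13.30 on both E14 arrays, against 13.30, 13.87 and 14.19. Both E14 arrays of Gli1 tied in rank with the lowest early array, E13 replicate 2, since quantile normalization gives equal ranks equal values. In the deposited ratios to Ppia they did not tie, with 0.210 and 0.316 at E14 against 0.270 on E13 replicate 2. The log2 difference of Gli1 was -0.53 (SE 0.22, 95% interval -1.01 to -0.05, adjusted p = 0.701). Gli3 differed by -0.26 (SE 0.16, 95% interval -0.62 to 0.11). The 3 Gli genes kept a difference below 0 in all 29 other settings, with ranges of -0.79 to -0.37 for Gli1, -0.62 to -0.21 for Gli2 and -0.42 to -0.07 for Gli3. The whole list had 4 members above 0, 3 below and a median of 0.03.

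Genes of Wnt signalling lay on both sides of 0, with 6 of 12 tested members above and 6 below, and 0 past the test. Fzd2, a Frizzled receptor, had 10.04 and 9.42 at E14, against a lowest of 9.80, a median of 10.69 and a highest of 11.32 in the early group. It was above background on 1 of 2 E14 arrays. The difference was -0.91 (SE 0.34, 95% interval -1.66 to -0.15, adjusted p = 0.701). Fzd9, another Frizzled, had 9.86 and 10.86 at E14, against 10.91, 10.96 and 11.15. With quantile normalization the second E14 array was just under the early range and the first well under it. On the first, the deposited signal of Fzd9 was 2151, beside that array's mean negative control of 1745. In the deposited ratios to Ppia the arrays of Fzd9 overlapped, with 0.0331 and 0.0425 at E14 against 0.0394 to 0.0853 in the early group. The log2 difference of -0.62 (SE 0.22, adjusted p = 0.701) was -1.10 without E14 replicate 2 and -0.12 without E14 replicate 1. Over the 29 other settings Fzd2 ran from -1.91 to -0.56 and Fzd9 from -1.30 to -0.12.

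On the other side, Lrp5, a co-receptor for Wnt ligands, had 12.39 and 12.61 at E14, against a lowest of 11.32, a median of 11.92 and a highest of 12.20. With quantile normalization both E14 arrays were higher than all early arrays. In the deposited ratios to Ppia they overlapped, with 0.131 and 0.209 at E14 against 0.0508 to 0.169 in the early group. The log2 difference of Lrp5 was 0.68 (SE 0.32, 95% interval -0.04 to 1.39, adjusted p = 0.829). Figf (now Vegfd), a growth factor for lymphatic and blood vessels, had 14.19 and 14.34 at E14, against 13.60, 14.12 and 14.15, a difference of 0.28 (SE 0.18, adjusted p = 0.862). The 4 genes on the array that were listed as endothelial markers, Figf among them, had a median of -0.0041 with 2 below 0. Their summed linear signal was 27198 to 32624 units at E14 and 23278 to 30739 in the early group. Figf was the brightest of the 4, with a mean log2 signal of 14.27 at E14 against 12.39 for Notch4, the next, so the sum mostly follows Figf. Of 8 blood markers the array holds 4, and the 3 tested had a median of 0.19. Of 5 neural markers it holds Mtap1b, at -0.24 (SE 0.38). None of these markers passed the test.

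**Figure D3:**
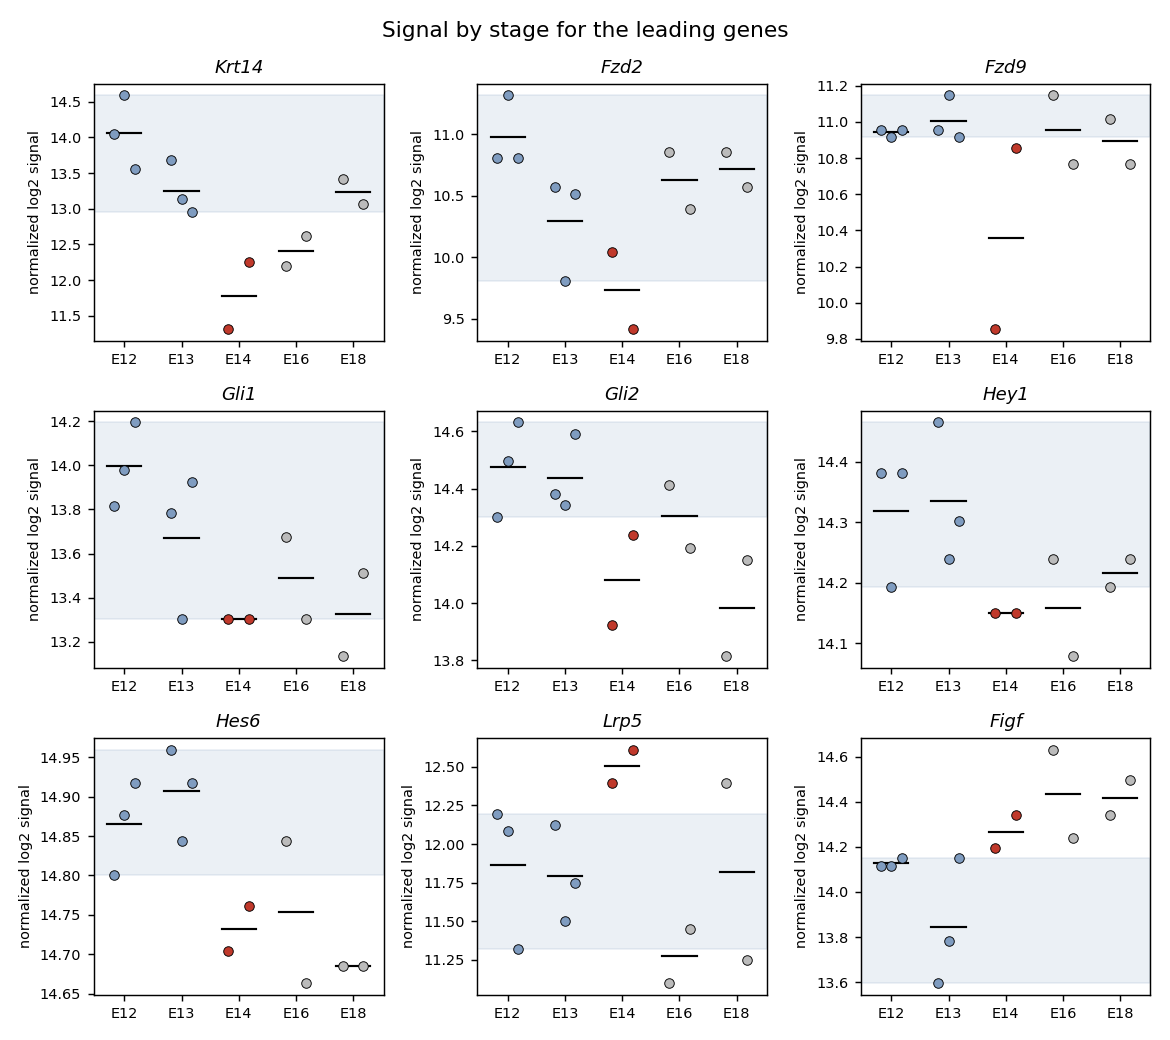
Normalized log2 signal of 9 genes on all 12 arrays by embryonic stage. Points are arrays (E14 in red), bars are stage means, and the shaded band is the range of the 6 early arrays. Krt14 lies below its band at E14 and at E16, and Lrp5 above its band on both E14 arrays and 1 E18 array.

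The cell cycle and growth list had 7 of 8 tested members below 0 and 0 past the test, with a median of -0.20, beside 47 of all 103 tested genes below 0. With other scalings 6 of the 8 were below 0, or all 8 with array medians, where 74 of the 103 genes were. Mycl1 (now Mycl), a Myc family transcription factor, had 11.21 and 10.96 at E14, against 11.15, 11.52 and 11.93 as lowest, median and highest early values. Its arrays overlapped the early range at the lower end, and its difference was -0.42 (SE 0.19, 95% interval -0.85 to 0.01, adjusted p = 0.829). Cdc16, a subunit of the anaphase-promoting complex, differed by -0.48 (SE 0.42) and the cyclin Ccnd1 by 0.11 (SE 0.13). Among 9 tested NF-kB and immune genes, the median was 0.09 and 0 passed. Il17b, a cytokine, had 10.39 and 11.15 at E14, against 10.81, 11.66 and 12.99, a difference of -1.14 (SE 0.57, 95% interval -2.41 to 0.13). It was -2.58 within replicate number 1 and -0.25 within number 2. Nfkb2 and Ifng differed by 0.12 (SE 0.18) and 0.21 (SE 0.23).

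Cbl, a ubiquitin ligase that was named here after its values were seen, was above background on neither E14 array and on 5 of 6 early arrays. It read 8.76 and 9.86 at E14, against a lowest of 9.03, a median of 10.48 and a highest of 11.50 in the early group. With quantile normalization the arrays of Cbl overlapped, and the 95% interval of the difference, -2.37 to 0.26, spanned 0 (adjusted p = 0.862). In the deposited ratios to Ppia they did not overlap, with 0.0143 and 0.0196 at E14 against 0.0203 to 0.0682 in the early group. The 5 housekeeping genes differed by 0.09 or less in size with quantile normalization, and all 5 were below 0 with array medians. Rps27a was at 0.09, B2m at 0.08, Gapdh at 0.04, Ppia at 0.01 and Hsp90ab1 at -0.01. They are among the brightest on the membrane, where quantile normalization allows small differences only.

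**Figure D4:**
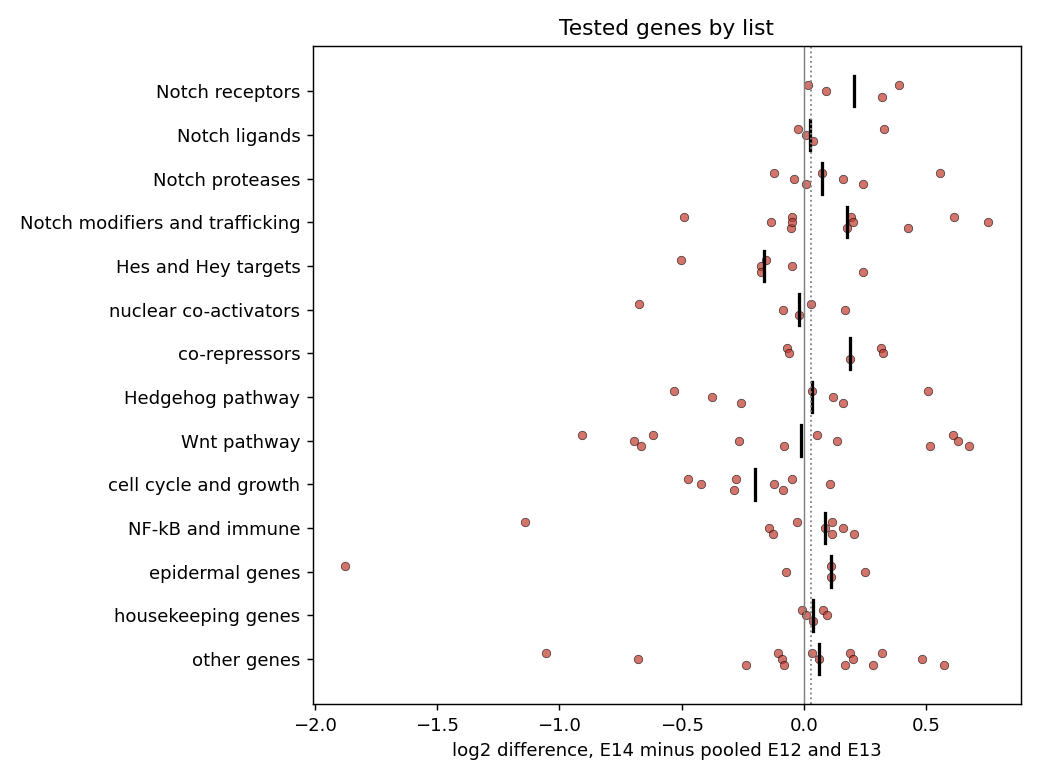
Difference in normalized log2 signal, E14 minus pooled E12 and E13, for each of the 103 tested genes, by gene list. Black bars are list medians and the dotted line is the median of all tested genes, 0.03. Krt14 is the point at -1.88, and most lists have points on both sides of 0.

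Whether a value was particular to E14 was asked by setting E14 against the mean of the stages before it and the stages after it. No gene passed (limma, 0 of 103, 0%), and 7 (6.8%) had an unadjusted p under 0.05. Krt14 differed by -1.46 (SE 0.39, adjusted p = 0.428), Fzd2 by -0.92 and Fzd9 by -0.59, while Lrp5 differed by 0.82 (adjusted p = 0.522 for the last 3). The other genes of the 7 were Lor at 0.81 (SE 0.31), Krt1 at 0.31 (SE 0.13) and Fos at -0.82 (SE 0.32), each with an adjusted p of 0.522. Lor and Krt1 at E14 were near their early means, with 13.37 against 13.26 and 12.01 against 12.08, and their E16 and E18 means were lower, from 11.80 to 11.90 for Lor and from 11.14 to 11.49 for Krt1. Fos, an immediate early gene, averaged 11.90 at E14 and 12.18 in the early group, and 12.75 at E16 and 13.75 at E18. For E16 and E18 together against the early group, which share the early arrays with the comparison above, 7 of 103 genes (6.8%) passed (limma, adjusted p under 0.05).

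The precision depended on the number of arrays, the brightness of the gene and the scaling. For the bright gene Adam17 the SE was 0.12 with quantile normalization and 0.22 with housekeeping genes. It was 0.39 with no normalization and 0.40 with array medians. The widths that follow are those with quantile normalization. The median 95% interval reached 0.95 to either side of the difference for the 35 dimmest genes, 0.68 for the 34 of middle brightness and 0.30 for the 34 brightest. The E14 arrays differed from each other by a median of 0.25 across tested genes, and the E12 and E13 means by 0.22. The interval widths are those of single genes before adjustment and are not limits of detection for the adjusted test. Krt14, at -1.88 with a 95% interval of -2.80 to -0.96, did not pass that test. That no gene passed does not show that the stages were alike.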

How the data were processed

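RNA of mouse embryonic kidney was amplified, labelled with biotin, hybridised to a membrane and read by chemiluminescence, per the labels' protocols and the series' design text. The deposited file of each array holds 1 intensity per spot, for 120 gene spots of 118 genes and 8 control spots. Image software, background handling and genome build are not given in the sources used here. A deposited table of the whole series holds ratios. Set against the intensities, each ratio equals the signal minus the lowest gene spot, over the mean Ppia signal minus that spot, to within 5e-10.

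Intensities were corrected by normexp (offset 50, all spots), log2-transformed, quantile-normalized across the 12 arrays (gene spots), and averaged over duplicate spots. The 6 negative-control spots set the background. Stage labels grouped the arrays. limma 3.58.1 in R 4.3.3 fitted the early group, E14, E16 and E18 as 4 means that share 1 spread (residual degrees of freedom 8, prior 1.73). Tests were 2-sided with Benjamini-Hochberg adjustment over 103 genes and a threshold of 0.05. E16 and E18 entered to estimate the spread and for the second contrast. The code was tested on simulated data.

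A gene was named if it passed either test, if both E14 arrays lay outside the early range, if it was a tested Notch receptor, ligand, protease, modifier, Hes or Hey gene or a housekeeping gene, or if it had 1 of the 3 smallest p-values of another list. The comparison, the members and the lists were chosen with earlier results of these data known. Lor, Fos, Krt5, Wnt11, Mtap1b, Cbl, Tead1 and Fzd6 fall outside the rule and were named after their values were seen. Jag2, Shh, Ptch1 and Ivl, which were not tested, fall outside it too. For 1 named protease gene, kept in every fit and count, values are not reported here. Accessions of 115 of the 118 genes matched RefSeq (GRCm38.p6). Other scalings, backgrounds, filters, priors, references and fits without single arrays were tried.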

Additional observations from a re-analysis of the deposited data

Results flagged for a closer look

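Among the 59 named genes, 3 had 1 early array standing apart from the other 5 by a Dixon test at the 95% level, which takes about 5% of groups by chance. Fzd9, with a mean of 10.36 at E14, read 11.15 on E13 replicate 2, against a median of 10.96 on the other early arrays. Lfng, with a mean of 9.80 at E14, read 8.76 on E12 replicate 2, against a median of 10.66 on the others. Gapdh, with a mean of 15.29 at E14, read 15.32 on E12 replicate 3, against 15.23.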

How the results depend on the processing

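The count of genes past the threshold between E14 and the early group was 0, and it was 1 with array medians, with a signal-dependent prior variance, with 1 mean per stage and with E12 alone as the reference. That gene was Krt14 each time, with differences of -1.91, -1.88, -1.88 and -2.28. Leaving out 1 array gave 0 to 1 genes in this comparison and 0 to 1 in E14 against the stages on both sides. The 1 gene was Tead1 without E14 replicate 1 and Fzd9 without E14 replicate 2, and in these fits the lone E14 array is assumed to vary like the other groups. Tead1 read 10.77 and 7.34 on the E14 arrays, against 9.30 to 10.18 on the early arrays. On E14 replicate 2 the deposited signal of Tead1 was 125, below that array's mean negative control of 946. Tead1 was above background on 1 of 2 E14 arrays and on 3 early arrays. The fit without E14 replicate 1 thus took its E14 value of Tead1 from a signal below background. Krt14 ran from -2.30 to -1.43 over the fits without 1 array (adjusted p of 0.0698 to 0.600), and dropping the 3 arrays with the highest background, a choice made after seeing the data, gave -2.00 (adjusted p = 0.713). Genes with both E14 arrays outside the early range numbered 7, and 3 with housekeeping scaling, 2 with no normalization, 23 with E12 alone, 16 with E13 alone, 8 without the 3 arrays of highest background and 7 to 28 without 1 array. Fewer arrays per group make such counts larger by construction, and the other causes were not tested. Deviations of same-numbered arrays across genes correlated at 0.18 and -0.20 between E14 and E12, at -0.25 and -0.42 between E14 and E13, and at 0.10, 0.15 and 0.24 between E12 and E13. With 2 arrays the E14 deviations mirror each other, and the numbers were not taken as pairs for E14, while within the early group every same-numbered pair was positive. With the replicate block the count stayed 0, and Krt14 was at -2.08 (adjusted p = 0.143). With stage means as the unit the count was 0 and Krt14 had an adjusted p of 0.178. Of 1679 single-gene values under alternatives, 91 changed sign, and none of those was past the threshold. Signal over background limits the dim genes most.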
